A study of Mus musculus with 24 samples.

Results

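EMT6 is a mouse mammary carcinoma line, and this account compares its quiescent and its cycling tumour cells, sorted from the same tumours. The members are 8 of the 24 RNA libraries of the series: 4 libraries of p27K-high cells and 4 of p27K-negative cells, a pair from each of 4 tumours, which the count table numbers 0, 1, 2 and 4. The other 16 libraries come from 4T07 and D2A1 tumours, also 8 per line, and enter only where EMT6 is compared with them. Every tumour grew from 250000 cells carrying mCherry and the mVenus-p27K reporter, placed in the mammary fat pad of Balb/cJ female mice, and was taken on day 14. So the cancer cells of both gates descend from cells with both transgenes, and neither gate is an untransduced control. Whether host cells entered the gates was not tested. The labels call the p27K-high cells quiescent cancer cells and the p27K-negative cells proliferative. They give neither the age of the mice, nor the borders of the gates, nor whether the transduced line was a pool or a clone. The question named in the title of the series is how quiescent cancer cells withstand T cells by means of an immunosuppressive niche. These libraries show the RNA side of the sorted cells.

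Quiescence is a reversible exit from the cell cycle into G0. The protein p27, product of Cdkn1b, binds cyclin and CDK complexes and accumulates in G0. The reporter is a p27 variant that cannot bind CDKs, fused to a yellow fluorescent protein, so the protein marks G0 cells without arresting them. In G0, the DREAM complex and RB proteins hold E2F target genes of the G1/S transition and the genes of G2 and mitosis silent, the latter largely through CHR elements in their promoters. In solid tumours quiescent cells are known from poorly perfused regions, where hypoxia-inducible factors raise genes of glycolysis and angiogenesis.

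Sequencing gave between 13769682 and 20142013 counts per p27K-high library of EMT6 and between 16988365 and 17508301 per p27K-negative one, with 19772 to 21074 symbols detected. Of 49038 symbols, 22002 had no count in any of the 8 libraries and 13354 passed the filter on low counts and were tested. Values below are CPM, counts scaled to equal library totals, given in the order of tumours 0, 1, 2 and 4. Changes are log2 fold changes, p27K-high minus p27K-negative. The value after ± is a standard error derived from the test statistic of the fit to the 4 pairs. A gene is said to have risen or fallen where the adjusted p of edgeR's quasi-likelihood test, with the tumour as a block, was under 0.05. CPM is not divided by gene length, so levels of different genes are not compared. Tumour 0 stood apart: 35 genes were at 5 CPM or more and at least 4-fold above all other libraries in its p27K-high library, 2 in its p27K-negative library and 9 in both, against 0 such genes for each library of tumours 1, 2 and 4.

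CD45 is the surface protein of blood cells, and its gene Ptprc did not pass the filter. The summed level of 6 general leukocyte markers was 1.19 to 2.74 CPM in the p27K-high and 1.17 to 1.93 CPM in the p27K-negative libraries. The 8 NK cell markers summed to at most 0.175 CPM, with 4 of them at 0 in all libraries. Of the 6 general markers Cd37 alone was tested, and rose from 0.44 to 1.18 CPM on average. The 12 T cell markers summed to 7.44 to 11.2 CPM in p27K-high and 10.4 to 14.0 CPM in p27K-negative cells. Lck had the largest share of this sum, and the 1 T cell marker tested fell. Of 24 macrophage and monocyte markers 10 were tested, 3 rose (30.0%: Cd68, Csf1r and Cd14) and 2 fell (20.0%: Mrc1 and Mpeg1), against 24.1% and 25.1% of all tested genes, and the sum of the 24 was 78.0 to 105 CPM in the p27K-high and 65.0 to 98.1 CPM in the p27K-negative gate. The endothelial list reached 3.44 to 10.3 and 4.52 to 17.0 CPM, with 1 of its 11 genes tested (Egfl7, not called). Both upper ends were those of tumour 0, and the other 6 libraries lay between 3.44 and 5.94 CPM. Skeletal muscle markers were also highest in tumour 0, at 7.71 and 7.08 CPM against 1.58 to 2.98 CPM elsewhere, and the adipocyte list reached at most 1.16 CPM. The labelled cell type showed partly: Krt8, a keratin of simple epithelium, was at 552, 686, 752 and 584 CPM in the p27K-high and 847, 698, 933 and 685 CPM in the p27K-negative gate. Vim, the intermediate filament of mesenchymal cells, was at 6196, 5517, 5691 and 6008 and 5553, 4613, 5026 and 4647 CPM, while the epithelial cadherin gene Cdh1 did not pass the filter and Epcam was near 2 CPM in both gates.

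The gate difference was broad. Of the 13354 genes tested 6567 were called (49.2%), 3215 of them higher (24.1%) and 3352 lower (25.1%) in p27K-high cells. Most changes were small: 311 genes (2.33%) rose and 556 (4.16%) fell by at least 2-fold, and for 7802 genes (58.4%) the 95% interval lay within 1.5-fold in either direction. The median change over all tested genes was 0.02. All 4 p27K-high libraries lay above all 4 p27K-negative libraries for 2009 genes (15.0%) and below them for 2574 (19.3%). Without tumour 0 there were 6984 calls, 3442 higher and 3542 lower, of which 6247 were among the 6567.

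Cdkn1b itself was at 349, 309, 298 and 357 CPM in p27K-high and 239, 220.4, 208 and 232 CPM in p27K-negative cells. Every p27K-high library was above every p27K-negative one, and the gene rose by 0.54 ± 0.04 (adjusted p = 9.3e-06). Whether reads of the reporter's own p27 sequence were counted to Cdkn1b was not tested. Mki67, which encodes the proliferation antigen Ki-67, was at 14.8, 10.8, 12.7 and 13.6 CPM in p27K-high and 489, 562, 465 and 549 CPM in p27K-negative cells, a change of -5.31 ± 0.09 (adjusted p = 4.7e-10). The groups were far apart in each pair, so the gates separated cells by proliferation as labelled.

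Genes of mitosis fell furthest of all lists. All 50 genes of the mitosis and cytokinesis list fell, each with no overlap between the gates, with a median of -4.69 against 0.02 for all genes. Of all tested genes 25.1% fell and 19.3% had all p27K-high libraries below the others. Kif11, the kinesin that pushes spindle poles apart, was at 4.15, 1.69, 1.75 and 2.04 CPM in p27K-high and 166, 196, 202 and 211 CPM in p27K-negative cells. Its change of -6.35 ± 0.19 (adjusted p = 7.3e-09) was the lowest among named genes that averaged at least 5 CPM in a gate and were called with 4 of 4 pairs on one side. Kif14, a kinesin of cytokinesis, was at 0.725, 0.295, 0.349 and 0.233 against 29.1, 37.8, 28.3 and 33.4 CPM, a change of -6.30 ± 0.19. The next were the DNA repair genes Ankle1 (-6.20 ± 0.24) and Neil3 (-6.04 ± 0.37), which act on DNA bridges and crosslinks in dividing cells. Without tumour 0 the change of Neil3 was -7.08 and that of Aspm, named next, -6.45. They were followed by the spindle genes Nusap1 (-5.90 ± 0.15), Kif2c (-5.85 ± 0.15), Aspm (-5.82 ± 0.24), Ttk (-5.79 ± 0.16), Hmmr (-5.78 ± 0.09) and Kif18b (-5.74 ± 0.13), the kinetochore scaffold Knl1 (-5.74 ± 0.19) and the abscission gene Cep55 (-5.72 ± 0.13). All 12 of these genes were called at levels of 0 to 4.15 CPM in p27K-high cells.

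The central regulators of mitosis were as low. Ccnb1, the cyclin that triggers mitosis, was at 4.15, 2.87, 4.09 and 4.83 CPM in p27K-high and 134, 149, 157 and 159.6 CPM in p27K-negative cells, and Plk1, a mitotic kinase, at 2.83, 1.55, 1.95 and 2.80 and 90.7, 105, 96.4 and 104 CPM. Ccna2, the cyclin of S and G2 phase, fell by 5.65 ± 0.16, the topoisomerase Top2a fell by 4.92 ± 0.18 and Foxm1, a transcription factor of the G2/M genes, fell by 3.91 ± 0.06. The members with the smallest p were Cenpe (-4.85 ± 0.07), a kinetochore motor, Bub1b (-4.80 ± 0.07), of the spindle checkpoint, and Hmmr. A remainder was measurable: the median level of the 50 genes in p27K-high cells was 3.85% of that in p27K-negative cells, and 4.74%, 3.34%, 3.97% and 3.57% within tumours 0, 1, 2 and 4. It ran from 1.24% for Kif11 to 26.3% for Smc4, a condensin subunit that also works outside mitosis. Whether it comes from a few cycling cells in the gate or a low level in all cells cannot be told apart in bulk RNA, where fewer cells of a type and less RNA per cell look alike.

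Genes of DNA replication and nucleotide supply fell too, all 48 of 48, with a median of -2.06. In 47 the gates did not overlap, against 19.3% of all tested genes on the lower side. Mcm2, a subunit of the replicative helicase, was at 50.3, 61.9, 64.5 and 64.1 CPM in p27K-high against 175, 173, 174 and 175 CPM in p27K-negative cells. Cdc6, which loads that helicase, was at 2.90, 1.55, 2.84 and 3.09 against 35.3, 26.5, 28.5 and 30.3 CPM, and Pcna, the sliding clamp, at 109, 119, 129 and 108 against 259.9, 292, 316 and 299.7 CPM. The 3 genes thus kept very different shares of their level, with changes of -1.54 ± 0.07, -3.52 ± 0.12 and -1.33 ± 0.05. Rrm2, the regulated subunit of ribonucleotide reductase, fell by 4.04 ± 0.09 and its partner Rrm1 fell by 2.46 ± 0.05. The chromatin assembly gene Chaf1a fell by 2.73 ± 0.06 and Mcm3 fell by 2.25 ± 0.05. The median remainder of the list was 24.1%, between 4.34% for Mcm10 and 87.1% for Dut, so replication genes stayed nearer to their level in cycling cells than the mitotic genes.

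The G1 machinery moved least of the cell cycle lists. Of 22 tested cyclins, CDKs and E2F factors 19 fell and none rose (median -0.83). Ccne1, the cyclin of the G1/S transition, fell by 1.69 ± 0.09, the activator E2f1 fell by 0.74 ± 0.06 and the repressor E2f7, itself an E2F target, fell by 4.16 ± 0.12. Of the CDK-binding subunits, Cks1b fell by 1.81 ± 0.05 and Cks2 fell by 2.07 ± 0.07. Ccnd1, the mitogen-responsive cyclin, was at 302, 415, 399.6 and 379 against 455, 431, 431 and 391 CPM, where the gates overlapped, and did not pass the test (adjusted p = 0.0792). Its partner kinase Cdk4 fell by 0.17 ± 0.06 (adjusted p = 0.0382), a call lost without tumour 2 (-0.13, adjusted p = 0.198) or tumour 4 (-0.19, adjusted p = 0.0803).

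The promoters of the 2 genes that fell most and the 2 that rose most, among genes called with 4 of 4 pairs on one side at 5 CPM or more in the higher gate, are shown because the CHR and CCAAT elements of cell cycle genes lie in such windows. Each runs from 250 bases before to 50 after the annotated start, 5′ to 3′ on the strand of the gene, from RefSeq on GRCm38.p6, with motif matches in capitals. The searched motifs, on both strands, were the CHR (TTTGAA or TTCGAA), the CCAAT box (CCAAT), the E2F site (TTTCCCGC, TTTCGCGC, TTTGCCGC or TTTGGCGC) and the core of the hypoxia response element (ACGTG or GCGTG), none of which contains another. Kif11 lies at chr19:37376132-37376431 on the plus strand, Kif14 at chr1:136467598-136467897 (plus), Aspn at chr13:49544193-49544492 (plus) and Gdpd2 at chrX:100729597-100729896 (plus).
Kif11: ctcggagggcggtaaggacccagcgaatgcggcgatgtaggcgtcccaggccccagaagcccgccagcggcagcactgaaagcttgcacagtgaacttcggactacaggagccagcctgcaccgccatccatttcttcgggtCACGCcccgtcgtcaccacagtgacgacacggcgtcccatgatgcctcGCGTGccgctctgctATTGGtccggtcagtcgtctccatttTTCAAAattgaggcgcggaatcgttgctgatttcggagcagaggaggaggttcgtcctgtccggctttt
Kif14: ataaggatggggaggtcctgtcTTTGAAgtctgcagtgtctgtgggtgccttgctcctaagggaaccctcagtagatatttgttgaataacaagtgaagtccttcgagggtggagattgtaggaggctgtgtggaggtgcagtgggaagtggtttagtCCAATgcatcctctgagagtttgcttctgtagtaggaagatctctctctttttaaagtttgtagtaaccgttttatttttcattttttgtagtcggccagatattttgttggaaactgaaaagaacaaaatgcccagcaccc
Aspn: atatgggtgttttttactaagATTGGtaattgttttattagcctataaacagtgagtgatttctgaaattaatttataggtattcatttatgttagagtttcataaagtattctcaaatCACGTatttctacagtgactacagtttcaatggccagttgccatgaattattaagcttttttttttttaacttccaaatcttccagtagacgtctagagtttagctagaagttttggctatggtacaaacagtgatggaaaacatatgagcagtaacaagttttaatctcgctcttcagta
Gdpd2: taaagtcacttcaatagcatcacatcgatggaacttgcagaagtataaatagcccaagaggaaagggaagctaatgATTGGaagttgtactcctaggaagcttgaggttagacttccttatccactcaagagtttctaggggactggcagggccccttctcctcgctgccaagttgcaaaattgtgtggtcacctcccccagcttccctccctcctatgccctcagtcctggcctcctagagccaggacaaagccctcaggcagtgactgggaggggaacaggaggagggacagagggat

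In Kif11 a CHR match on the minus strand starts at -19 from the start site and a CCAAT box, also on the minus strand, at -45, with hypoxia cores at -108 and -60. GENCODE vM21 places the start of the Kif14 gene at 136466343, which is 1505 bases before the start site of the window shown, and its nearest coding transcript 87 bases after that site, so the window lies within the gene by that annotation. The Kif14 window has a CHR match at -228 and a CCAAT box at -92, both on the plus strand. The Aspn and Gdpd2 windows have no CHR match, and 1 minus-strand CCAAT box each, at -229 and -174, and Aspn a hypoxia core at -131. Over the 9500 tested genes with a promoter entry, 13.9% had a CHR match, against 38.0% of the genes that fell by at least 2-fold, 59.2% of those that fell by at least 8-fold and 10.9% of those that rose by at least 2-fold. Among 39 promoters of the mitosis list 30 (76.9%) had a CHR and 27 (69.2%) had a CHR and a CCAAT box, which 5.95% of the tested genes had together. The replication list differed: of 39 promoters 6 (15.4%) had a CHR and 14 (35.9%) an E2F site, against 4.24% of tested genes and 7.69% of the mitosis list. Over all 27025 symbols with a promoter, 19.4% had a CHR, 37.9% a CCAAT box, 2.32% an E2F site and 43.8% a hypoxia core. These are counts of letter matches and say nothing of binding.

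Among CDK inhibitors and factors of quiescence 20 of 32 tested genes rose, 6 fell and 6 were not called (median 0.43). Foxo3, a transcription factor active when growth signals are low, rose by 0.51 ± 0.06, the antiproliferative gene Btg1 by 0.69 ± 0.04 and Ccng2, a cyclin-like FOXO target, by 0.40 ± 0.06. Btg1 was at 603, 528, 543 and 484 CPM in p27K-high and 375, 324, 351 and 285 CPM in p27K-negative cells, without overlap. Other CDK inhibitors went down: Cdkn1a, which encodes p21, was at 73.7, 119, 101 and 104 CPM in p27K-high and 90.8, 142, 119 and 111 CPM in p27K-negative cells. It was lower in 4 of 4 pairs, although the ranges of the gates overlapped, and fell by 0.22 ± 0.05 (adjusted p = 0.0049). Of the INK4 inhibitors, Cdkn2d fell by 1.79 ± 0.09 and Cdkn2c fell by 0.33 ± 0.07, and Gas2l3, a cytoskeletal gene of cytokinesis, fell by 2.79 ± 0.08. Rbl2, the DREAM subunit p130 (0.09 ± 0.09, adjusted p = 0.451), and Txnip, a glucose-responsive regulator of uptake (0.25 ± 0.13, adjusted p = 0.137), did not pass the test, but Txnip passed without tumour 1 (0.42, adjusted p = 0.0218). Cdkn1c, for p57, was below the filter.

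By the same limits on calls, pairs and level, the 12 genes that rose most were of other kinds than the cell cycle. Aspn, which encodes asporin, a small proteoglycan that binds collagen and TGF-beta, was at 2.77, 6.41, 13.9 and 14.2 CPM in p27K-high and 0.878, 0.704, 0.979 and 1.64 CPM in p27K-negative cells, a change of 3.06 ± 0.27 (adjusted p = 1.8e-05). Its p27K-high libraries all lay above the others but ranged widely, tumour 0 being lowest. Gdpd2, a glycerophosphodiester phosphodiesterase, was at 102, 34.3, 31.7 and 43.4 against 7.67, 5.34, 6.80 and 8.01 CPM (2.80 ± 0.21), here with tumour 0 highest. Enpp2, the secreted enzyme autotaxin, which makes lysophosphatidic acid, was at 237, 140.0, 179 and 159 CPM in p27K-high and 52.0, 34.0, 40.2 and 39.5 CPM in p27K-negative cells (2.10 ± 0.05, adjusted p = 3e-09). Abca1, the cholesterol exporter, was at 22.7, 9.13, 15.2 and 16.6 against 2.46, 2.05, 3.80 and 4.09 CPM (2.33 ± 0.19), and Plin4, a lipid droplet coat protein, at 4.28, 5.38, 4.94 and 6.17 against 0.995, 0.704, 1.15 and 0.526 CPM (2.61 ± 0.26). The gates did not overlap in any of these 5 genes. The other 7 were the O-glycosylation enzyme Galnt15 (2.79 ± 0.33), the oxidoreductase-like gene Pyroxd2 (2.45 ± 0.15), Tcp11l2 (2.45 ± 0.12), Bmf, a BH3-only activator of apoptosis (2.34 ± 0.34), Mustn1 (2.26 ± 0.20), the angiopoietin-like gene Angptl7 (2.14 ± 0.15) and the methyltransferase Inmt (2.07 ± 0.31). In 11 of the 12 the gates did not overlap, and in Angptl7 they did, against 15.0% of all tested genes without overlap on the higher side. The genes were chosen as called, higher in 4 of 4 pairs and of largest change, so this separation is no independent result.

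**Figure D1:**
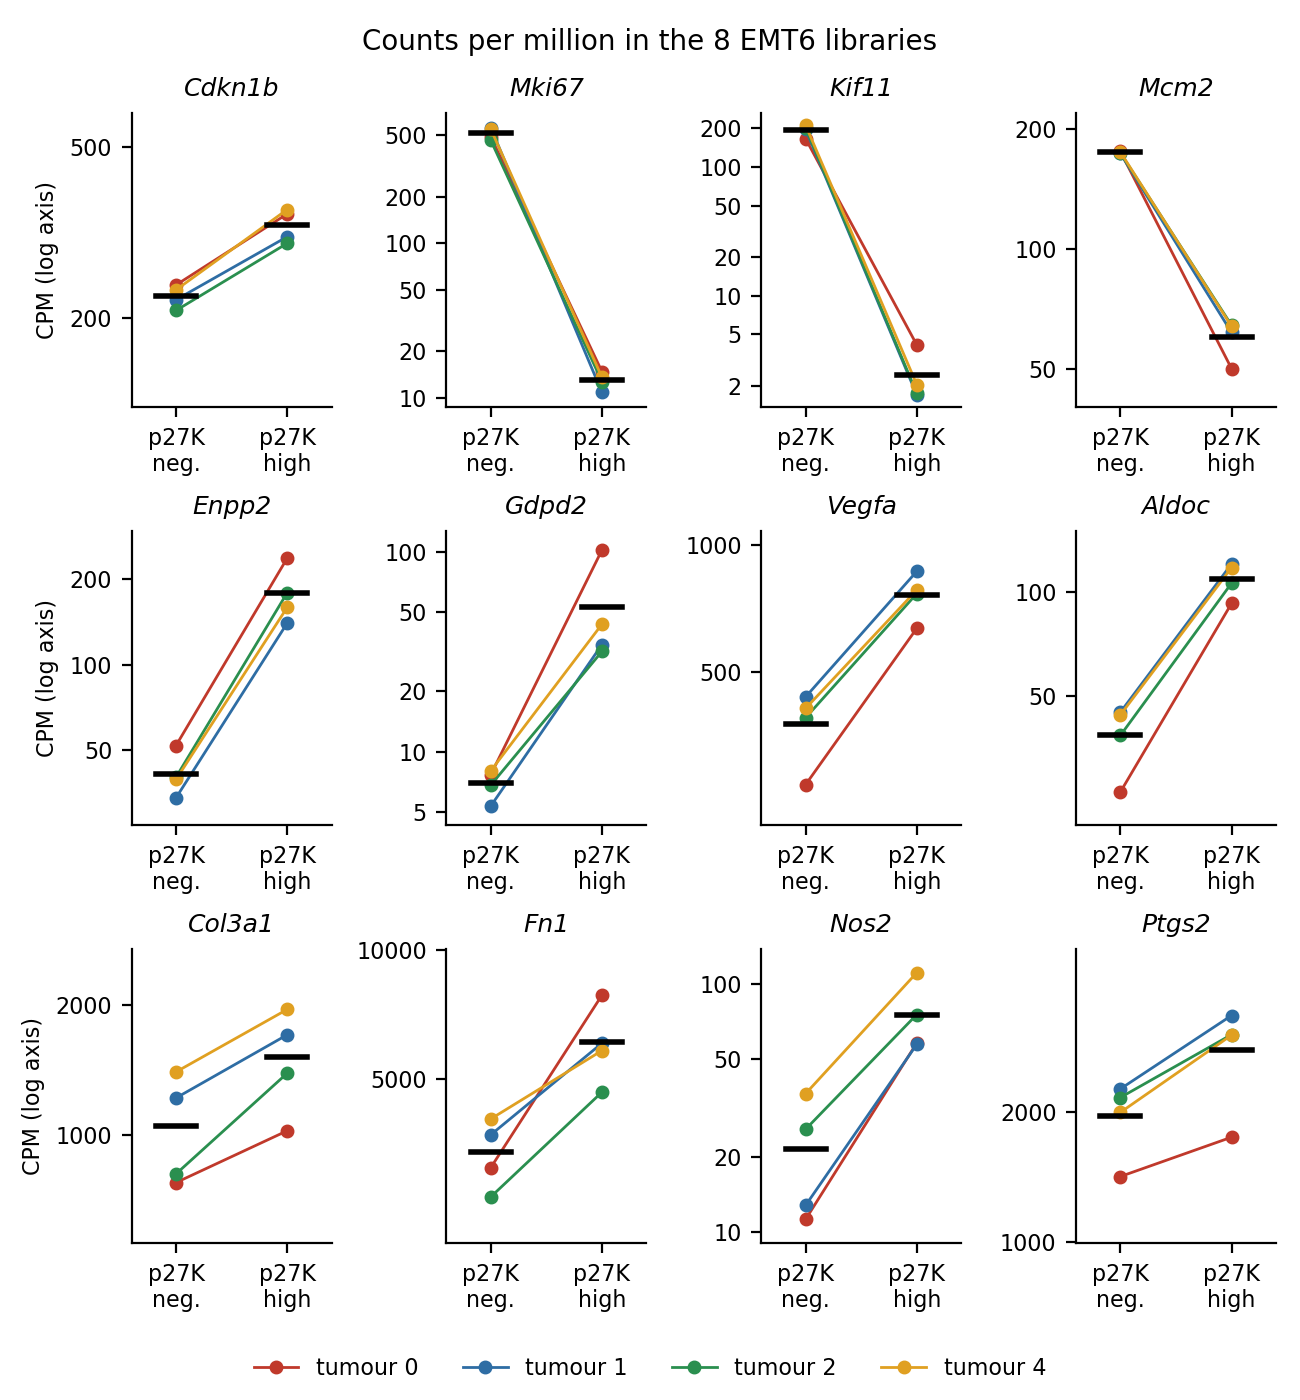
CPM (log axis, scaled separately in each panel) of 12 genes in the p27K-negative and p27K-high libraries of EMT6. Each colour is a tumour and joins its pair, black bars are means of 4, and Mki67, Kif11 and Mcm2 drop in every tumour, and the other 9 genes rise in every tumour, with tumour 0 lowest of the p27K-high libraries for Vegfa, Aldoc, Col3a1 and Ptgs2 and highest for Enpp2, Gdpd2 and Fn1.

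Targets of the hypoxia-inducible factor HIF1A formed a group that rose almost throughout, 34 of 38 tested, with 1 lower and 3 not called (median 0.60). Vegfa, the main angiogenic factor, was at 635, 867, 768 and 783 CPM in p27K-high and 269, 436, 389 and 409 CPM in p27K-negative cells (1.04 ± 0.05, adjusted p = 4.8e-07). Car9, a membrane carbonic anhydrase that extrudes acid, was at 142, 165, 162 and 160.2 against 52.8, 62.9, 72.9 and 74.4 CPM (1.27 ± 0.06), and Ndrg1, a stress-induced gene, at 729, 697, 754 and 581 against 248, 229, 318 and 259 CPM (1.39 ± 0.08). The gates were apart in all 3 genes and in 29 of the 38 on the higher side, against 15.0% of all tested genes. The mitophagy receptor Bnip3 rose by 0.92 ± 0.06 and the glucose transporter Slc2a1 by 0.89 ± 0.04, whereas another transporter, Slc2a3, was low and fell (-0.64 ± 0.16). Of 28 promoters of the list 25 (89.3%) had a hypoxia core, against 63.6% of tested genes.

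Glycolysis genes rose in 16 of 17 cases and none fell (median 0.46, and 0.54 without tumour 2). Aldoc, an aldolase, was at 92.8, 121, 106 and 118 CPM in p27K-high and 26.3, 44.8, 38.4 and 44.0 CPM in p27K-negative cells (1.53 ± 0.07), and the enolase Eno2 rose by 1.27 ± 0.07. Hexokinase Hk2 rose by 0.71 ± 0.10 and the aldolase Aldoa by 0.57 ± 0.04. At the end of the pathway the changes were smaller, 0.20 ± 0.04 for the pyruvate kinase Pkm and 0.29 ± 0.04 for the lactate dehydrogenase Ldha. Nuclear genes of oxidative phosphorylation went the other way, with 35 of 42 lower and 1 higher (median -0.30), none by 2-fold. Atp5a1, of the ATP synthase, was at 553, 644, 631 and 612 CPM in p27K-high and 698, 785, 854 and 786 CPM in p27K-negative cells, with no overlap. Cytochrome c, from Cycs, fell by 0.91 ± 0.07 and cytochrome c1, from Cyc1, fell by 0.70 ± 0.05, while the complex I gene Ndufs1 fell by 0.37 ± 0.05 and the complex II gene Sdha fell by 0.28 ± 0.05. Ndufa4, also of the respiratory chain, fell by 0.43 ± 0.05. Cox4i1 did not pass the test (-0.10 ± 0.04), and the exception that rose was Uqcrh (0.20 ± 0.04), a small subunit of complex III.

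Ribosome production and ribosomal proteins parted. Of 31 genes of the MYC and ribosome biogenesis list 25 fell and 1 rose (median -0.50). Tcof1, a nucleolar factor of rRNA transcription, was at 36.3, 47.8, 46.0 and 42.8 CPM in p27K-high and 97.9, 114, 108 and 113 CPM in p27K-negative cells (-1.33 ± 0.05). Cad, for pyrimidine synthesis, fell by 0.89 ± 0.05, nucleolin (Ncl) fell by 0.59 ± 0.05, nucleophosmin (Npm1) fell by 0.20 ± 0.05 and Odc1, for polyamine synthesis, fell by 0.59 ± 0.12. The riser was Myc itself, at 108, 179.6, 197 and 154 CPM in p27K-high and 115, 129.9, 152 and 121 CPM in p27K-negative cells. It was higher in 3 of 4 pairs and lower in tumour 0, and its rise of 0.28 ± 0.08 (adjusted p = 0.0195) was lost without tumour 1 (0.22, adjusted p = 0.105), tumour 2 (0.25, adjusted p = 0.104) or tumour 4 (0.26, adjusted p = 0.0791). Cytosolic ribosomal protein genes rose in 61 of 65 cases and none fell, by a small amount (median 0.21). Rps27 rose by 0.46 ± 0.04 and Rpl17 by 0.38 ± 0.04, with Rps27 at 620.5, 618, 689 and 588 against 420.1, 465, 498 and 449 CPM. Ribosomal protein genes have many pseudogene copies, and how the counting split such reads is not given in the sources used here.

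Autophagy and lysosome genes rose in 29 of 36 cases, with 1 lower (median 0.37). Gabarap, which coats autophagosomes, was at 240.2, 211, 224 and 207 CPM in p27K-high and 144, 123, 132 and 128 CPM in p27K-negative cells, a change of 0.74 ± 0.04 without overlap. Its relative Map1lc3b rose by 0.57 ± 0.04, the cargo receptor Sqstm1 by 0.44 ± 0.04, the lysosomal enzymes Ctsa and Ctsd by 0.88 ± 0.05 and 0.44 ± 0.04 and the membrane protein Lamp1 by 0.23 ± 0.06. The call of Lamp1 was lost without tumour 4 (0.19, adjusted p = 0.0507). The member that fell was the glucuronidase gene Gusb (-0.50 ± 0.05).

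Cholesterol synthesis moved little: 1 of 24 genes rose, 6 fell and 17 were not called (median -0.0026, and 0.05 without tumour 0). Hmgcs1 (0.11 ± 0.05) and Sqle (0.17 ± 0.08), both enzymes of the pathway, were not called, while Fdps, which makes farnesyl diphosphate, fell by 0.26 ± 0.05 and the sterol carrier Stard4 fell by 0.39 ± 0.08. Without tumour 0, Hmgcs1 (0.17, adjusted p = 0.0015) and Sqle (0.28, adjusted p = 3.6e-05) passed as higher. The list of unfolded protein and ATF4 targets had 17 of 29 genes lower and 6 higher (median -0.24). The members that fell most were enzymes of serine synthesis, Psat1 at 227, 267, 281 and 269 against 521, 478, 537 and 468 CPM (-0.94 ± 0.07) and Phgdh (-0.75 ± 0.06), and the chaperone-like Creld2 (-0.70 ± 0.06). Ddit3, which encodes the stress factor CHOP, rose by 0.47 ± 0.09. The regulator Atf4 (-0.08 ± 0.05) and the chaperone Hspa5 (-0.09 ± 0.04) did not pass the test, although Hspa5 passed as lower without tumour 0 (-0.12, adjusted p = 0.0155).

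The p53 list was split, with 8 of 26 genes higher (30.8%) and 11 lower (42.3%), against 24.1% and 25.1% of all tested genes (median -0.07). Trp53 fell by 0.36 ± 0.05 and its antagonist Mdm2 rose by 0.23 ± 0.04, while the pore-forming Bax was not called (-0.08 ± 0.05). The largest falls were those of Gtse1 (-3.59 ± 0.09), a gene of G2 and S phase, and Pidd1 (-1.73 ± 0.17), a death-domain adaptor that works at surplus centrosomes. In the BCL2 family 6 of 14 tested genes rose (42.9%) and 4 fell (28.6%), against 24.1% and 25.1% of all tested genes. The median was 0.07, and 0.11 without tumour 0. The changes lay on both sides of the balance between survival and death. Bmf was at 17.3, 2.73, 4.79 and 4.60 CPM in p27K-high and 1.52, 0.821, 0.806 and 1.93 CPM in p27K-negative cells, and Bcl2l11, which encodes the activator BIM, at 38.3, 23.3, 26.9 and 22.7 against 14.8, 16.5, 16.8 and 14.6 CPM (0.80 ± 0.13). The protectors Bcl2 and Mcl1 rose by 0.41 ± 0.08 and 0.26 ± 0.06, the effector-like Bok fell by 0.53 ± 0.08, Bcl2l13 fell by 0.34 ± 0.05 and Bcl2l1 was not called (0.12 ± 0.05) except without tumour 0 (0.16, adjusted p = 0.0057).

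In the TGF-beta, BMP and SMAD list 25 of 36 genes rose and 2 fell (median 0.37). Among ligands, Tgfb2 was at 17.0, 22.4, 18.2 and 22.3 CPM in p27K-high and 15.3, 14.2, 9.79 and 14.2 CPM in p27K-negative cells (0.59 ± 0.12), without overlap, and Tgfb1 rose by 0.27 ± 0.07. The co-receptor Tgfbr3 rose by 0.67 ± 0.05 and the receptor Tgfbr2 by 0.18 ± 0.06 (adjusted p = 0.0255). Of the signal carriers, Smad3 rose by 0.41 ± 0.06 and the inhibitor Smad7 by 0.25 ± 0.06. Among targets, Ctgf, a matricellular protein, was at 279, 556, 419.6 and 688 against 169, 261, 201 and 379 CPM (0.93 ± 0.06), higher in 4 of 4 pairs, and Thbs1, which activates latent TGF-beta, at 1169, 1395, 1199 and 1328 against 637, 818, 653 and 782 CPM (0.82 ± 0.04). The 2 that fell were Id1 (-0.55 ± 0.11), a target of BMP signals, and the stress cytokine Gdf15 (-0.51 ± 0.10). The call of Tgfb1 was lost without tumour 2 (0.21, adjusted p = 0.0572), and that of Tgfbr2 without tumour 1 (0.15, adjusted p = 0.123), tumour 2 (0.17, adjusted p = 0.112) or tumour 4 (0.17, adjusted p = 0.107).

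Collagens and the enzymes that process them rose in 18 of 32 cases and fell in 2 (median 0.28). Col3a1, of fibrillar collagen III, was at 1023, 1709, 1391 and 1957 CPM in p27K-high and 775, 1219, 812 and 1401 CPM in p27K-negative cells, higher in 4 of 4 pairs (0.54 ± 0.06), although the ranges of the gates overlapped. Collagen I rose less, by 0.18 ± 0.04 for Col1a1 and 0.30 ± 0.03 for Col1a2, and the fibril-associated Col12a1 more, by 0.83 ± 0.05. The prolyl hydroxylases P4ha1 and P4ha2, themselves hypoxia targets, rose by 0.54 ± 0.04 and 0.84 ± 0.06. The basement membrane gene Col4a1 was low and not called (-0.42 ± 0.35), but passed as lower without tumour 0 (-1.12, adjusted p = 0.0057), and Col5a2 fell (-1.51 ± 0.26) from 10.8, 1.88, 2.71 and 3.98 to 2.37, 1.25, 0.798 and 1.81 CPM.

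Other matrix proteins rose in 16 of 30 tested cases (53.3%) and fell in 4 (13.3%), against 24.1% and 25.1% of all tested genes (median 0.42). Leaving out a tumour moved this median to between 0.35 (without tumour 2) and 0.54 (without tumour 4). Fn1, fibronectin, was at 7849, 6069.8, 4671 and 5835 CPM in p27K-high and 3119.5, 3718, 2667 and 4048 CPM in p27K-negative cells (0.84 ± 0.10), and Spp1, the cytokine-like osteopontin, at 6038, 3528, 4151 and 3110.5 against 2049, 2029, 2206 and 1971 CPM (0.98 ± 0.12). Thbs2 was at 155, 114, 96.8 and 137 against 40.3, 40.5, 29.1 and 43.4 CPM (1.71 ± 0.07) and the small proteoglycan Ogn at 646, 1079.5, 1097 and 1334 against 266, 463, 440.3 and 577 CPM (1.26 ± 0.04). The gates did not overlap in these 4 genes, whereas Tnc, tenascin C, was lower in p27K-high cells of 3 of 4 tumours, at 5.01, 0.516, 0.748 and 0.233 against 29.4, 0.352, 3.51 and 5.26 CPM (-2.55 ± 0.38), and Fbln1 fell by 1.25 ± 0.12. Sparc (0.10 ± 0.04) and Postn (-0.22 ± 0.58) were not called, and without tumour 0 both passed as higher (0.13, adjusted p = 0.0064 and 0.82, adjusted p = 0.0283), which for Postn turned the sign. Fibroblast markers summed to 1167 to 1419 CPM in p27K-high and 894 to 1259 CPM in p27K-negative cells, and 4 of their 8 tested genes rose and none fell, while Fap, Cd34, Dpt and C7 did not pass the filter. Pericyte and smooth muscle markers summed to 532 to 915 CPM in p27K-high and 509 to 822 CPM in p27K-negative cells, where Acta2 had the largest share, and 2 of their 6 tested genes rose (Pdgfrb and Notch3) and none fell. Mesenchymal tumour cells express such genes too, and the part of admixed fibroblasts or pericytes in the matrix changes was not tested.

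Matrix proteases and their inhibitors rose in 12 of 25 cases (48.0%) and fell in 3 (12.0%), against 24.1% and 25.1% of all tested genes. The median was 0.44 and dropped to 0.17 without tumour 0. Mmp2, a gelatinase, was at 192, 164, 177 and 184 CPM in p27K-high and 69.6, 119, 97.3 and 122 CPM in p27K-negative cells (0.84 ± 0.13), and its membrane-bound activator Mmp14 rose by 0.16 ± 0.04. The aggrecanases Adamts4 and Adamts5 rose by 0.62 ± 0.06 and 0.79 ± 0.07, without overlap of the gates. Mmp3 was at 122, 7.37, 4.84 and 0.408 against 28.7, 4.34, 2.94 and 10.4 CPM, so that a single library decided its mean, and was not called (0.65 ± 0.67), though it passed without tumour 4 (1.50, adjusted p = 0.0024). The inhibitor Timp1 did not pass the test (0.03 ± 0.08), except as higher without tumour 0 (0.14, adjusted p = 0.0312).

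In the list of EMT factors and adhesion 7 of 16 tested genes rose and 1 fell (median 0.14, and 0.086 without tumour 4). Snai1, a repressor of epithelial genes, was at 64.2, 74.9, 74.7 and 78.7 CPM in p27K-high and 35.4, 51.3, 40.2 and 48.5 CPM in p27K-negative cells (0.75 ± 0.07), and Twist1 rose by 0.50 ± 0.06 and Vim by 0.24 ± 0.04. Zeb1 rose by 0.29 ± 0.09, a call that DESeq2 did not make (0.30, adjusted p = 0.0832) and that was lost without tumour 1 (0.31, adjusted p = 0.0614) or tumour 4 (0.32, adjusted p = 0.0644), and Snai2 was not called (-0.03 ± 0.21). Krt8 fell by 0.30 ± 0.08 (without tumour 2, -0.29, adjusted p = 0.0679, and without tumour 0, -0.19), Krt18 was not called (-0.06 ± 0.05) and the low Krt19 rose by 1.39 ± 0.22, so keratins did not move together. Genes linked to dormancy of disseminated cells rose in 14 of 19 tested cases and fell in 2 (median 0.53), among them the nuclear receptor Nr2f1 at 180.2, 133, 113 and 151 against 107, 114, 70.7 and 108 CPM (0.53 ± 0.08).

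WNT and YAP targets (8 of 20 higher, 3 lower, median 0.14) were called in 55.0% of cases, against 49.2% of all tested genes. Ctgf, Cyr61 (0.35 ± 0.05) and the WNT receptor Fzd7 (0.61 ± 0.06) were among the risers. The receptor kinase Axl fell by 0.35 ± 0.04, in 4 of 4 pairs, and Axin2, the common WNT target, was not called (0.23 ± 0.09) except without tumour 0 (0.35, adjusted p = 0.0011). In the growth factor list 15 of 30 genes rose and 5 fell (median 0.28, and 0.41 without tumour 0). Dusp6, a phosphatase induced by ERK, was at 359.7, 331, 315 and 356 CPM in p27K-high and 174, 224, 198 and 220.3 CPM in p27K-negative cells (0.74 ± 0.07), without overlap. Its relative Dusp4 rose by 1.01 ± 0.06 and the FGF receptor Fgfr1 by 0.60 ± 0.05. Etv4, a transcription factor induced by ERK signals, went the other way, at 21.9, 38.4, 34.8 and 28.9 against 44.8, 61.9, 55.3 and 47.2 CPM (-0.77 ± 0.07), also without overlap. The receptor Egfr rose by 0.25 ± 0.07 and Met fell by 0.22 ± 0.08 (-0.10 without tumour 0). Both calls were lost without tumour 2 (0.21, adjusted p = 0.106 and -0.24, adjusted p = 0.113) or tumour 4 (0.21, adjusted p = 0.107 and -0.26, adjusted p = 0.0632), and that of Egfr without tumour 1 (0.25, adjusted p = 0.0608). The ligand Hbegf was not called (0.32 ± 0.14), with tumour 0 alone lower in the p27K-high gate, and passed without it (0.54, adjusted p = 1.3e-07).

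Genes that cells switch on quickly under stimulation or handling also rose. Of 26 immediate-early and AP-1 genes 22 rose and none fell (median 0.32). The AP-1 members Fosl2 and Maff rose by 0.73 ± 0.08 and 0.75 ± 0.05 and the factor Klf2 by 0.77 ± 0.09, with Fosl2 at 733, 596, 643 and 588 against 346, 397, 409 and 391 CPM. The classical members moved less, 0.28 ± 0.06 for Fos, 0.17 ± 0.06 for Jun and 0.23 ± 0.06 for Egr1 (0.15 without tumour 0), and the call of Jun was lost without tumour 0 (0.10, adjusted p = 0.0515), tumour 1 (0.21, adjusted p = 0.0505) or tumour 4 (0.16, adjusted p = 0.131). Heat-shock genes went mostly the other way, 4 of 19 higher and 10 lower (median -0.14). The mitochondrial chaperone Hspd1 fell by 0.61 ± 0.05 and the cytosolic Hsp90aa1 fell by 0.43 ± 0.05, Hspe1, the partner of Hspd1, fell by 0.41 ± 0.04 and Hspa4 fell by 0.48 ± 0.05, while the inducible Hspa1a was not called (-0.19 ± 0.12). Tissue digestion is known to induce both gene classes, and its part in the gate difference was not tested.

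The glucocorticoid response list had a median of 0.66, with 15 of 18 tested genes higher and 1 lower. Tsc22d3, which encodes the mediator GILZ, was at 219, 278, 241 and 374 CPM in p27K-high and 96.0, 164, 130.2 and 224 CPM in p27K-negative cells (0.89 ± 0.07), higher in 4 of 4 pairs. The kinase Sgk1 was at 888, 1018, 998 and 1192 against 610.1, 605, 651 and 713 CPM (0.66 ± 0.05), and the metallothionein Mt1, also a metal-response gene, rose by 0.73 ± 0.05. The receptor Nr3c1 rose by 0.40 ± 0.04 and Hsd11b1, which regenerates active glucocorticoid, by 1.74 ± 0.40 from a low level. Against these, Fkbp5, a widely used reporter of receptor activity, fell by 0.41 ± 0.05, in 4 of 4 pairs. NRF2 antioxidant and iron genes were divided, 6 of 25 higher and 12 lower (median -0.08, and -0.13 without tumour 1). Hmox1, which degrades haem, rose by 0.66 ± 0.04, the iron store Fth1 by 0.43 ± 0.03 and the factor Nfe2l2 by 0.24 ± 0.04. Gclm, for glutathione synthesis, fell by 0.79 ± 0.05, Nqo1 fell by 0.55 ± 0.05, the thioredoxin reductase Txnrd1 fell by 0.50 ± 0.04 and Tfrc, the iron import receptor, fell by 0.74 ± 0.08.

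The immune-related genes changed in different directions. Among factors that can restrain T cells, 14 of 30 tested genes rose and 5 fell (median 0.27). Nos2, the inducible nitric oxide synthase, was at 57.7, 57.0, 75.2 and 111 CPM in p27K-high and 11.2, 12.8, 25.9 and 36.1 CPM in p27K-negative cells (1.87 ± 0.12, adjusted p = 2.5e-06), with no overlap. Ptgs2, the cyclooxygenase of prostaglandin E2 synthesis, was at 1751, 3359, 3032 and 3024 against 1419, 2268, 2166 and 1999.8 CPM (0.49 ± 0.05), higher in 4 of 4 pairs, with tumour 0 lowest in both gates and the ranges overlapping. Nt5e, which encodes CD73 and makes adenosine, was at 210.4, 121, 127 and 91.7 against 42.7, 72.2, 85.8 and 67.9 CPM (0.99 ± 0.25), and the change was 0.58 without tumour 0. Cd47, the signal that restrains phagocytosis, rose by 0.37 ± 0.09 (without tumour 0, 0.23), Pvr, a ligand of TIGIT and CD226, by 0.59 ± 0.05 and Lgals9 by 0.20 ± 0.07, the last not without tumour 4 (0.19, adjusted p = 0.123) and by 0.12 without tumour 0. Cd274, which encodes PD-L1, was at 15.0, 11.1, 30.2 and 16.0 against 10.2, 12.9, 32.8 and 14.7 CPM and did not pass the test (0.07 ± 0.12, adjusted p = 0.641). Arg1 was low and not called (-0.28 ± 0.32), and Pdcd1lg2, for PD-L2, was below the filter.

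Angiogenic factors rose in 15 of 21 cases and none fell (median 0.67), among them Thbs2, Thbs1 and Vegfa given above, of which the thrombospondins restrain vessel growth. The list median was 0.46 without tumour 0, 0.59 without tumour 1 and 0.56 without tumour 2. The lymphatic factor Vegfc was called (1.72 ± 0.63, adjusted p = 0.0454) but stood at 4.15, 0.589, 1.40 and 0.466 against 0.176, 0.117, 0.806 and 0.585 CPM, and the call was lost without tumour 0 (0.68, adjusted p = 0.208) or tumour 1 (1.64, adjusted p = 0.108). Chemokines and cytokines were tested in 23 of 43 cases, the rest being too low, and 9 rose and 4 fell (median 0.15, between 0.09 without tumour 1 and 0.23 without tumour 2). The share called was 56.5%, against 49.2% of all tested genes. Cxcl10, an interferon-induced attractant of T cells, was at 8.30, 6.04, 13.3 and 7.63 CPM in p27K-high and 12.9, 13.8, 32.3 and 14.2 CPM in p27K-negative cells (-1.02 ± 0.12), lower in 4 of 4 pairs, and its relative Cxcl9, at most 2.77 CPM, fell by 1.09 ± 0.27, a call that DESeq2 did not make (-1.13, adjusted p = 0.0804). The macrophage growth factor Csf1 fell by 0.19 ± 0.05, not without tumour 1 (-0.18, adjusted p = 0.0557). The neutrophil attractant Cxcl5 rose by 0.60 ± 0.07 and Il11 by 0.45 ± 0.08, while Cxcl1 (0.15 ± 0.07), Ccl2 (-0.15 ± 0.33) and Ccl5 (-0.56 ± 0.22) were not called, although Cxcl1 passed without tumour 2 (0.24, adjusted p = 0.0188) and Ccl5 without tumour 1 (-0.70, adjusted p = 0.0479).

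Cytokine receptors rose in 16 of 26 cases and none fell (median 0.31). Osmr, the oncostatin M receptor, was at 157, 175, 159 and 191 CPM in p27K-high and 101, 120.1, 95.7 and 119 CPM in p27K-negative cells (0.65 ± 0.05), and Il4ra and Il6st rose by 0.65 ± 0.05 and 0.54 ± 0.05. The interferon-gamma receptor chain Ifngr2 rose by 0.53 ± 0.08 and the death receptor Fas by 0.43 ± 0.08. Ifngr1 (0.20 ± 0.09) and the TNF receptor Tnfrsf1a (0.07 ± 0.05) were not called, but Ifngr1 passed without tumour 0 (0.30, adjusted p = 0.0033). Of 24 NF-kB factors and targets 10 rose (41.7%), 2 fell (8.33%) and 12 were not called (median 0.11, and 0.18 without tumour 2). Among all tested genes 24.1% rose and 25.1% fell. The list was thus called about as often as all tested genes, of which 49.2% were called, and differed from them in direction only. The feedback gene Tnfaip3 rose by 0.37 ± 0.10, not without tumour 1 (0.36, adjusted p = 0.051) and by 0.23 without tumour 0. The complement gene C3 rose by 0.78 ± 0.11 and Bcl3 by 0.44 ± 0.07. Vcam1 fell by 0.31 ± 0.05, and Nfkb1 (-0.04 ± 0.04) and Nfkbia (0.07 ± 0.07) were not called.

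Interferon-stimulated genes rose in 19 of 37 cases and fell in 4 (median 0.17), and in none of the 37 were the gates free of overlap. Of all tested genes 15.0% had all p27K-high libraries above the others and 19.3% had them below. Of the 37, 35 differed between tumours, so overlap of the ranges does not speak to the change within pairs. Ifit1, which binds foreign RNA, was at 32.8, 27.6, 78.1 and 40.7 CPM in p27K-high and 14.6, 18.3, 48.2 and 27.7 CPM in p27K-negative cells (0.74 ± 0.10), higher in 4 of 4 pairs, and Irf7 and Ifi27 rose by 0.66 ± 0.12 and 0.40 ± 0.06. Ifit2 was at 18.3, 19.2, 31.0 and 21.7 against 33.6, 29.3, 40.3 and 36.8 CPM and fell by 0.65 ± 0.09, so that 2 genes of 1 family went opposite ways in every tumour. Isg15 (0.10 ± 0.05) and Irf1 (-0.05 ± 0.09) were not called, although Irf1 passed as lower without tumour 0 (-0.18, adjusted p = 0.003).

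In antigen presentation by MHC class I, 3 of 20 genes were higher (15.0%) and 7 lower (35.0%), so that 10 of 20 were called, against 49.2% of all tested genes (median -0.10). The heavy chain H2-K1 was at 1085, 1301, 1409 and 1341 CPM in p27K-high and 1012, 1358, 1360.0 and 1314 CPM in p27K-negative cells and was not called (0.03 ± 0.04). Its shared light chain B2m rose by 0.30 ± 0.04 and H2-D1 by 0.10 ± 0.04, the latter not without tumour 1 (0.11, adjusted p = 0.0836), tumour 2 (0.11, adjusted p = 0.0936) or tumour 4 (0.09, adjusted p = 0.184). The peptide transporter Tap1 fell by 0.27 ± 0.05 and the trimming peptidase Erap1 fell by 0.31 ± 0.06, while the immunoproteasome subunit Psmb8 was not called (-0.10 ± 0.04) except without tumour 0 (-0.10, adjusted p = 0.0364). The 7 class II genes, 6 of which fell, are described with the tumours below.

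**Figure D2:**
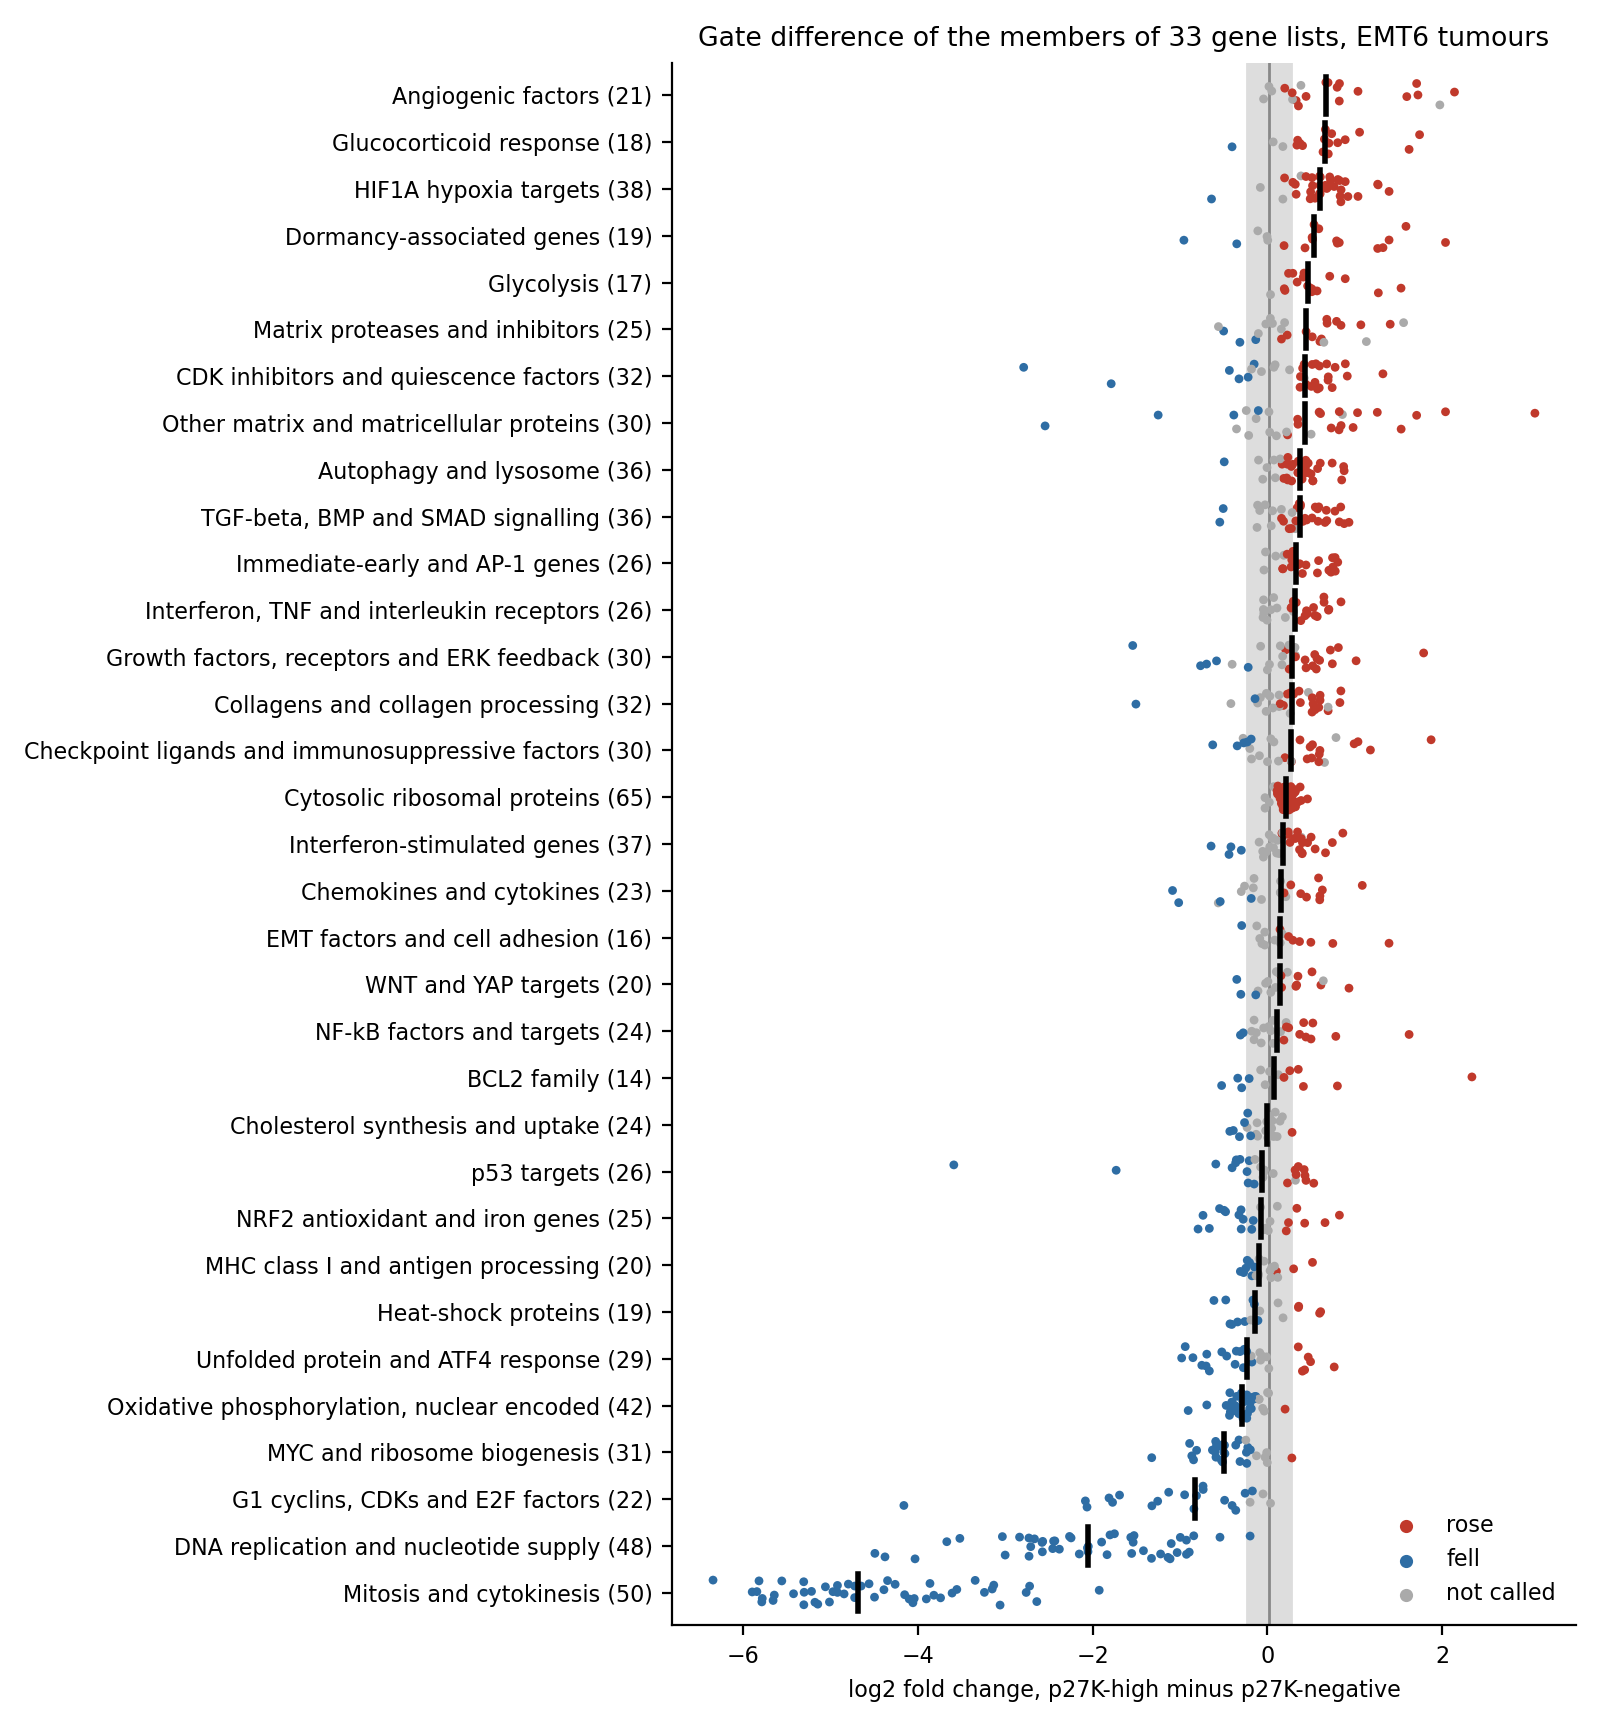
Log2 fold change (p27K-high minus p27K-negative) of the tested members of 33 gene lists, with the number tested in brackets. Points are genes (red rose, blue fell, grey not called), black bars are list medians, the grey band and line give the quartiles and median of all 13354 tested genes, and mitosis (median -4.69), replication (-2.06) and G1 genes (-0.83) lie lowest, and angiogenic factors (0.67), the glucocorticoid response (0.66) and hypoxia targets (0.60) highest. Without tumour 0 the angiogenic median was 0.46.

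Apart from the gates, the 4 tumours differed from each other. By the F test on the tumour terms of the same fit, 2077 of the 13354 genes (15.6%) differed between tumours, and 1265 (9.47%) differed by tumour and by gate. In this test the 2 gates of a tumour served as its 2 measurements, with no replicate of the same gate in a tumour. Leaving out tumour 2 lowered the count to 885, and leaving out tumour 0 raised it to 2346. Among interferon-stimulated genes 35 of 37 differed between tumours (94.6%), as did 7 of 7 class II, 15 of 20 class I and 14 of 19 heat-shock genes. By contrast 2 of 50 mitosis genes and 1 of 48 replication genes did. The tumours thus varied in their level of interferon-related genes, and few cell cycle genes were called between them.

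Cd74, the invariant chain of class II, had the smallest p of the tumour test, at 17.7, 82.7, 185 and 88.8 CPM in p27K-high and 22.4, 115, 277 and 106 CPM in p27K-negative cells (adjusted p = 3.7e-06). H2-Eb1, a class II beta chain, was at 3.95, 18.6, 59.7 and 18.3 against 4.21, 31.2, 94.9 and 25.7 CPM (adjusted p = 8.4e-06) and Igtp, an interferon-gamma-induced GTPase, at 42.0, 63.6, 166 and 75.8 against 44.3, 95.0, 207 and 107 CPM (adjusted p = 6.6e-05). In all 3 genes tumour 2 was highest and tumour 0 lowest in both gates. Class II genes fell between gates: Cd74 fell by 0.43 ± 0.06, H2-Eb1 fell by 0.58 ± 0.09, H2-Aa fell by 0.63 ± 0.14, H2-Ab1 fell by 0.55 ± 0.13 and the class II transactivator Ciita fell by 0.70 ± 0.24. The call of H2-Aa was lost without tumour 2 (-0.63, adjusted p = 0.0506) and that of H2-Ab1 without tumour 1 (-0.45, adjusted p = 0.0522) or tumour 2 (-0.41, adjusted p = 0.15). The call of Ciita was lost by DESeq2 (-0.64, adjusted p = 0.112) and without tumour 1 (-0.71, adjusted p = 0.0827), tumour 2 (-0.54, adjusted p = 0.244) or tumour 4 (-0.56, adjusted p = 0.137). In tumour 0 Cd74 was lower too, but not the list as a whole: its 7 class II genes summed to 38.5 CPM in p27K-high and 39.1 CPM in p27K-negative cells and their median pair change was 0.13, against -0.73, -0.66 and -0.37 in tumours 1, 2 and 4. Professional antigen-presenting cells also express class II. The macrophage and monocyte markers given above did not move one way. Their sum was 83.4, 78.9, 105 and 78.0 CPM in p27K-high and 73.2, 65.0, 98.1 and 72.2 CPM in p27K-negative cells, highest in tumour 2. The 9 dendritic cell markers, which include the class II gene H2-DMb2, summed to 6.59, 9.87, 14.2 and 9.61 against 5.21, 9.21, 14.5 and 8.54 CPM. Like Cd74, this sum was lowest in tumour 0 and highest in tumour 2 in both gates. The part of such cells was not tested.

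Other genes set tumour 0 apart, as did the endothelial and skeletal muscle markers given above, whose part in these differences was not tested. Tmsb4x, an actin-binding peptide, was at 150.0, 7.66, 12.3 and 7.22 CPM in p27K-high and 156, 4.63, 12.8 and 12.5 CPM in p27K-negative cells (adjusted p = 1.2e-05 between tumours, 0.642 between gates). Dio2, which activates thyroid hormone, was at 108, 5.97, 12.8 and 6.52 against 22.1, 1.58, 3.23 and 3.68 CPM (adjusted p = 7.5e-05) and also rose between gates by 1.89 ± 0.20. Gadd45g, a stress-induced growth regulator, was at 88.2, 38.4, 43.0 and 44.2 against 68.8, 29.0, 34.7 and 33.5 CPM (adjusted p = 7.5e-05). The stress factor Atf3 (150.3, 56.9, 67.0 and 41.5 against 114, 40.2, 57.5 and 29.2 CPM, adjusted p = 2.4e-05) and the inducible chaperone Hspa1b (1018, 771, 597 and 359 against 1119, 755, 663 and 384 CPM, adjusted p = 2.4e-05) were highest in tumour 0 and lowest in tumour 4. Heat-shock and early response genes are also changed by handling, and handling and tumour cannot be told apart here.

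**Figure D3:**
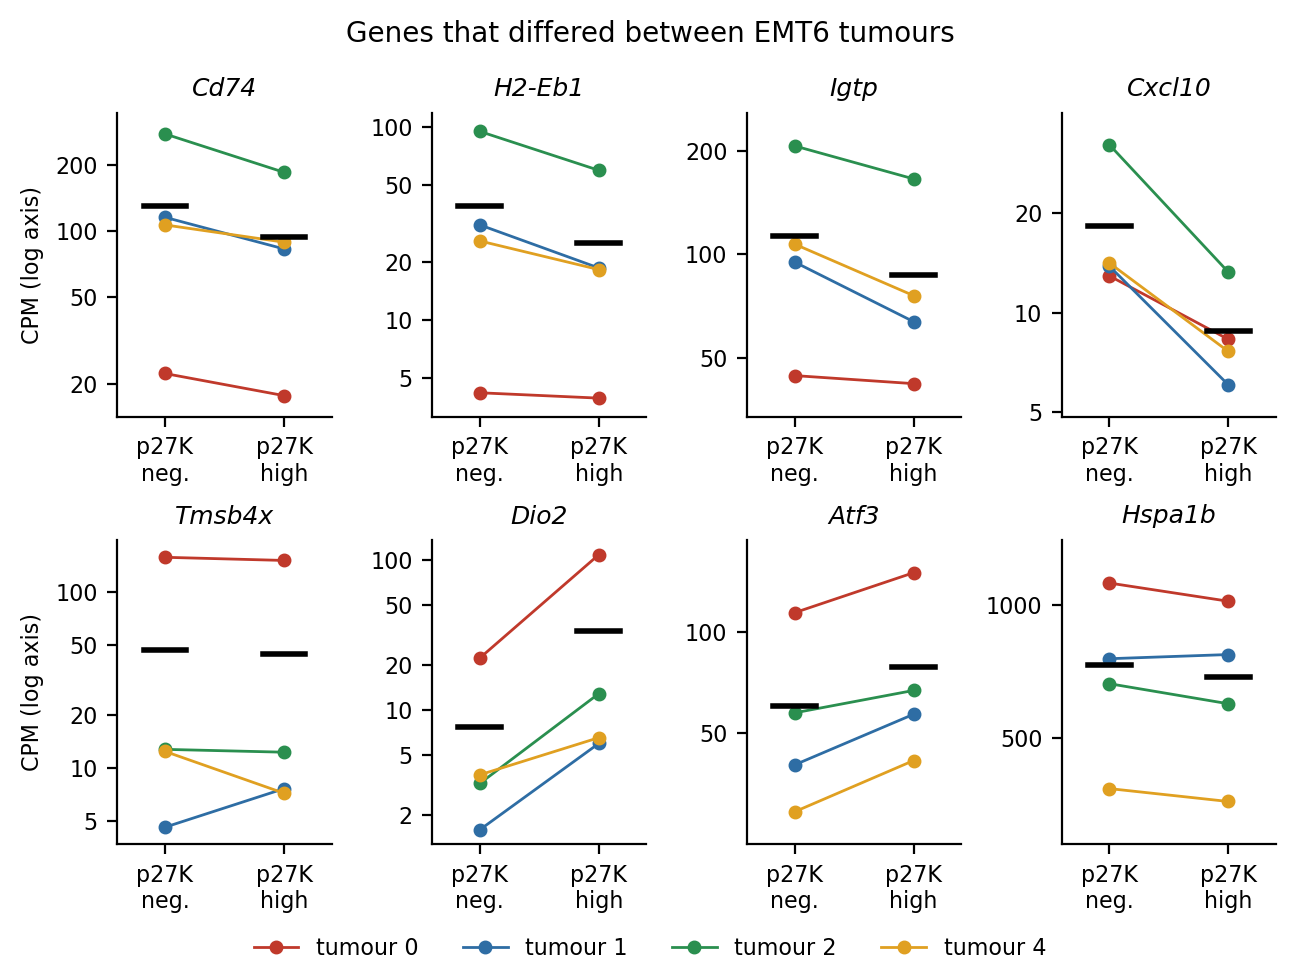
CPM (log axis, scaled separately in each panel) of 7 of the 8 genes with the smallest p between tumours, and of Cxcl10; colours mark tumours, lines join the gates of a tumour and black bars are means of 4. In both gates tumour 2 is highest for Cd74, H2-Eb1, Igtp and Cxcl10 and tumour 0 for Tmsb4x, Dio2, Atf3 and Hspa1b.

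To see where EMT6 differed from the other lines, its gate difference was set against the mean of those of 4T07 and D2A1 in 1 fit of all 24 libraries. Each line was sequenced in a run of its own, so line and run cannot be told apart. Of 13559 genes tested, 551 differed (4.06%), 326 with a higher change in EMT6 (2.4%) and 225 with a lower one (1.66%). The count was 247 without tumour 1, 246 without tumour 2 and 323 without tumour 4 of EMT6. Cdkn1b (-0.17 ± 0.11, adjusted p = 0.449) and Mki67 (0.87 ± 0.25, adjusted p = 0.0588) did not pass this test. The fitted change of Cdkn1b was 0.55 ± 0.09 in EMT6, 0.93 ± 0.09 in 4T07 and 0.52 ± 0.09 in D2A1. The mean of the other lines thus joins unlike values, and single lines were not tested against each other.

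Among the genes described above, fibrillar collagens differed between the lines. In the joint fit Col1a2 changed by 0.31 ± 0.33 in EMT6, -1.23 ± 0.41 in 4T07 and -3.81 ± 0.42 in D2A1, a difference of 2.82 ± 0.45 (adjusted p = 0.0017). Col3a1 changed by 0.54 ± 0.28, -1.0 ± 0.32 and -1.69 ± 0.33 in the same order of lines (1.89 ± 0.37, adjusted p = 0.0081), and Col1a1 differed by 1.00 ± 0.21 (adjusted p = 0.0113). The levels lay further apart than the changes: Col1a2 was at 3305 to 5508 CPM in the EMT6 libraries, against 0.579 to 23.9 CPM in 4T07 and 3.80 to 149.5 CPM in D2A1. Here and below, CPM of 4T07 and D2A1 was scaled to plain totals over the symbols shared by the 3 lines, without the TMM factor. So Col1a2 and Col3a1 were a little higher in p27K-high cells of EMT6, where they were abundant, and had negative fitted changes in the lines where they were scarce. Col12a1 showed another pattern, with 0.84 ± 0.14 in EMT6 and 0.28 ± 0.15 in D2A1 and a negative change, -1.85 ± 0.20, in 4T07 alone (1.62 ± 0.19, adjusted p = 0.00011).

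The hypoxia targets Bnip3, Slc2a1 and Ndrg1 had positive fitted changes in all 3 lines, the smallest in EMT6. Bnip3 changed by 0.93 ± 0.12 in EMT6, 1.96 ± 0.13 in 4T07 and 1.73 ± 0.13 in D2A1 (-0.92 ± 0.15, adjusted p = 0.0025). Slc2a1 differed by -0.77 ± 0.13 (adjusted p = 0.0026) and Ndrg1 by -0.59 ± 0.11 (adjusted p = 0.0069). For Ptgs2 the mean of the other lines hides opposite changes, 1.62 ± 0.13 in 4T07 and -3.21 ± 0.23 in D2A1, with EMT6 between them at 0.49 ± 0.12 (1.29 ± 0.18, adjusted p = 0.00057). In D2A1 the gene was at 0.154 to 62.9 CPM, and in 4T07 at 480.1 to 2361 CPM.

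Of the 6 genes with the lowest difference, Ogn, Gpm6b, Tnc and Fbln1 had counts in every library of the other lines. Ogn changed by 1.26 ± 0.18 in EMT6, 3.52 ± 0.21 in 4T07 and 2.31 ± 0.23 in D2A1 (-1.65 ± 0.23, adjusted p = 0.00058), so its rise was smallest in EMT6. Gpm6b, a membrane proteolipid, differed by -1.32 ± 0.23 (adjusted p = 0.0033), and Tnc by -1.89 ± 0.39 (adjusted p = 0.0112), a call lost without tumour 0 (-1.87, adjusted p = 0.0723). Fam111a, a protease at replication forks, was at 2.37, 0.516, 0.898 and 0.873 CPM in p27K-high and 44.1, 19.0, 17.5 and 15.5 CPM in p27K-negative EMT6 cells, without overlap, and differed by -2.42 ± 0.50 (adjusted p = 0.012), with 1 library of D2A1 at 0. Fbln1 was at 0.289 CPM or less in 4T07, and Smoc1 had no count in the 4 p27K-negative libraries of D2A1. Without the tumour block the calls of Gpm6b (-1.40, adjusted p = 0.21), Ogn (-1.68, adjusted p = 0.08), Fam111a (-2.79, adjusted p = 0.0725), Fbln1 (-1.45, adjusted p = 0.171) and Tnc (-1.93, adjusted p = 0.388) were lost.

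The 6 genes with the highest difference, Adamts2, Zfp618, Kng2, Calhm2, Flrt2 and Papss2, were each near 0 in a gate of another line. Zfp618, a zinc finger protein, was at 32.6, 54.6, 41.9 and 52.8 CPM in p27K-high and 22.9, 45.3, 30.7 and 41.3 CPM in p27K-negative EMT6 cells. It did not exceed 0.390 CPM in 4T07 and 0.776 CPM in D2A1, so its counts there were few. Kng2 had no count in the 4 p27K-high libraries of D2A1 and Calhm2 none in those of 4T07, and the fitted differences of the 6 genes rest on few counts. Within EMT6, Kng2 rose by 1.30 ± 0.13, Papss2 by 0.66 ± 0.13, Flrt2 by 0.39 ± 0.07 and Zfp618 by 0.39 ± 0.06, and Adamts2 (0.26 ± 0.26) and Calhm2 (-0.10 ± 0.08) were not called, although Adamts2 passed without tumour 0 (0.50, adjusted p = 0.04).

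**Figure D4:**
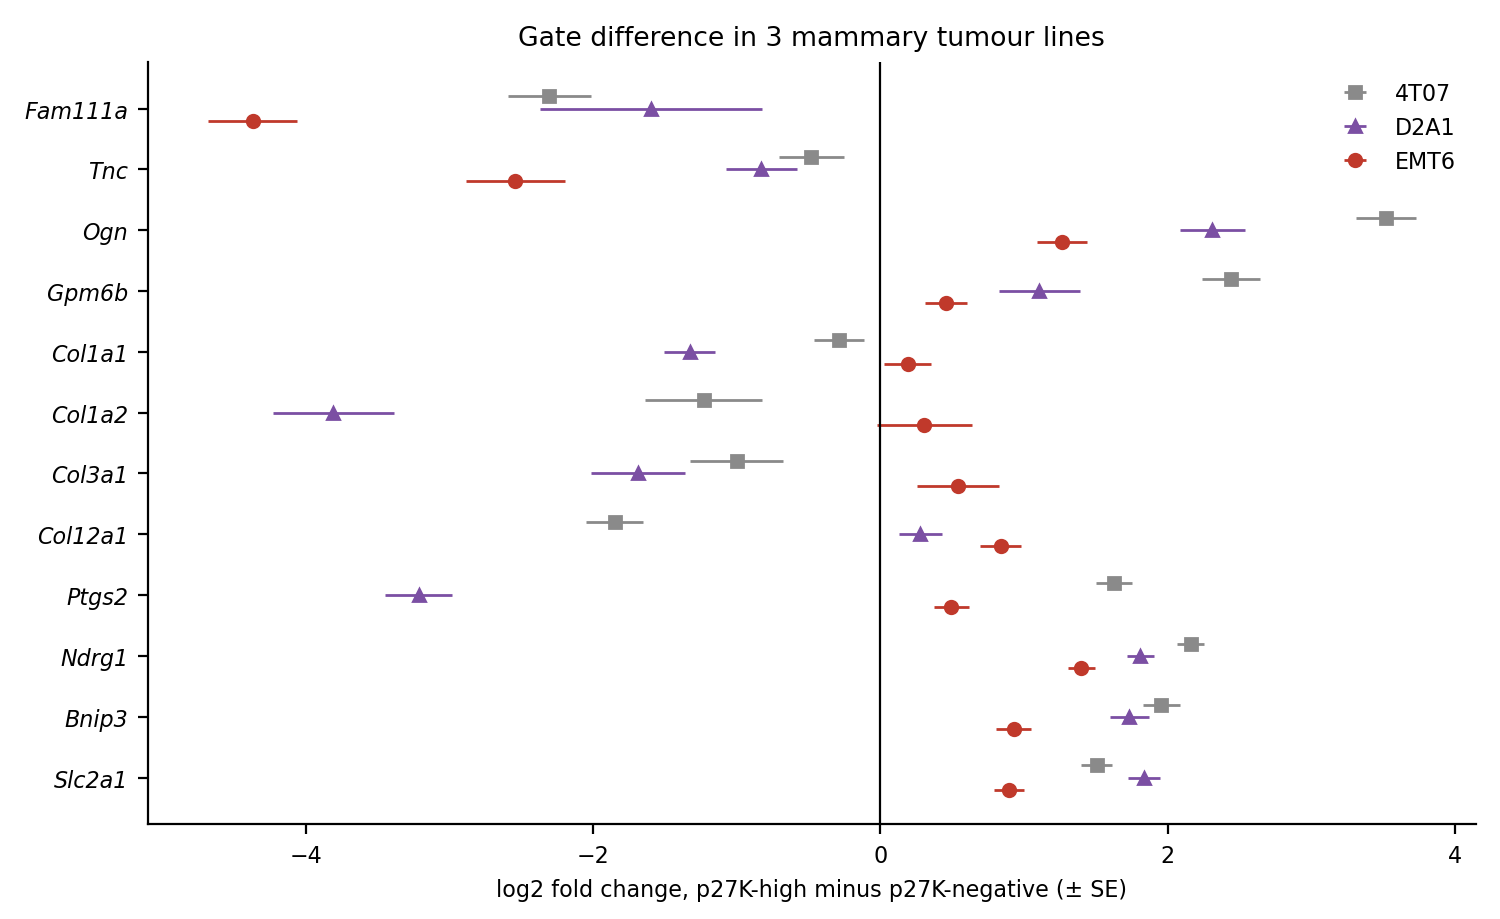
Log2 fold change (p27K-high minus p27K-negative, ± SE of the joint fit) of 12 genes in 4T07 (grey squares), D2A1 (purple triangles) and EMT6 (red circles). The collagens Col1a2 and Col3a1 lie near or above 0 in EMT6 and below it in the other lines, and Ndrg1, Bnip3 and Slc2a1 lie above 0 in all 3 lines, with EMT6 lowest.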

How the data were processed

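The authors deposited a table of counts per gene symbol for each line, from sequencing of RNA of sorted cells. Per the submitters' processing notes the genome build was mm10 and DESeq2 was used; the aligner, the counter and the use of strand are not named in the sources read. In the EMT6 table, 176 of 49316 entries had no name and 1 was a row of totals; these were left out, and counts of 94 symbols that stood on several entries were added up. The label titles number the tumours 1 to 4 and the columns 0, 1, 2 and 4; the numbers pair the gates of a tumour, since the labels say that both came from the same tumour, and deviations of same-numbered libraries correlated at 0.574 to 0.813 over 5000 genes (other pairings -0.426 to 0.269).

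The counts were tested in R 4.3.3 with edgeR 4.0.16 (TMM scaling, filterByExpr by gate, quasi-likelihood test, gate plus tumour block), with Benjamini-Hochberg adjustment over all tested genes and a threshold of 0.05. The standard error of a log2 change was taken as its size divided by the square root of F. The 3 lines were joined by symbol for the line contrast. Depth was 13769682 to 20142013 counts per EMT6 library and as low as 1335433 in D2A1. Different replicates are different tumours. The block takes out the levels of the tumours, so p-values of the gate rest on how its difference varied between these 4. On simulated counts for the 13354 genes of the EMT6 gate difference, 70.0% of 1.5-fold, 90.7% of 2-fold and all 4-fold and 8-fold changes were recovered and 5.91% of calls were false. Only 150 genes per fold were changed over 3 simulations, whereas 49.2% of genes were called in the data. The threshold on p after adjustment differs with that share, so these rates need not hold for the data.

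Genes were named by rule: Cdkn1b and Mki67; the 12 highest and 12 lowest changes among genes called, alike in sign in all 4 pairs and averaging 5 CPM or more in the higher gate; in each list its marked key members and the 3 called members of smallest p; the 8 genes of smallest p between tumours at a mean of at least 20 CPM; and the 6 highest and 6 lowest line differences at a mean of at least 5 CPM. Some genes that the rule picks are not reported here. Of 250 genes followed through the alternatives, 240 were picked by this rule; Gusb, H2-Aa, Id1, Col5a2, Ciita, Gdf15, Cdkn2c, H2-Ab1, Slc2a3 and Uqcrh were named after their values were seen, as were single marker genes. The comparison, the lists and the rule were chosen with earlier results of these data known. Alternatives were a fit without the block, RLE scaling, total count scaling, DESeq2 1.42.0, no filter, a filter of 5 CPM in 4 libraries and leaving out each tumour. Promoters are those of RefSeq on GRCm38.p6, matched by symbol for 9500 of the 13354 genes.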

Additional observations from a re-analysis of the deposited data

Results flagged for a closer look

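Of 500 groups of 4 libraries (250 genes in each gate), 41 (8.20%) had a library whose gap to its neighbour exceeded Dixon's 95% limit as a share of the range of the group, where chance flags about 1 in 20 groups. Of the 41, 28 were libraries of tumour 0. The 250 genes include the 8 named for the smallest p between tumours. Of those, Tmsb4x, Gadd45g and Dio2 were flagged in both gates of tumour 0. So neither the 41 nor the part of tumour 0 in them is an independent count. Values are CPM, with the range of the other 3 libraries in brackets. In the p27K-high library of tumour 0, 15 of the 250 genes stood apart: Gdpd2 at 102 (31.7 to 43.4), Pyroxd2 at 23.5 (8.33 to 9.20), Bmf at 17.3 (2.73 to 4.79), Kif11 at 4.15 (1.69 to 2.04) and Knl1 at 3.03 (1.30 to 1.57). There were also Map1lc3b at 204 (166 to 169), Tgfbr2 at 310.4 (228 to 240.3), Col4a1 at 7.91 (0.663 to 1.11), Tnc at 5.01 (0.233 to 0.748) and Mmp3 at 122 (0.408 to 7.37). There were also Csf1 at 361 (522 to 555), Tmsb4x at 150.0 (7.22 to 12.3), Gadd45g at 88.2 (38.4 to 44.2), Dio2 at 108 (5.97 to 12.8) and Maff at 92.5 (116 to 119.7). In the p27K-high library of tumour 1, 2 of the 250 genes stood apart: Cdc6 at 1.55 (2.84 to 3.09) and Gtse1 at 8.03 (5.20 to 5.59). In the p27K-high library of tumour 2, 3 of the 250 genes stood apart: Sparc at 939.6 (1132 to 1157), Ciita at 4.69 (1.32 to 1.84) and Postn at 8.63 (1.40 to 2.24). In the p27K-high library of tumour 4 it was Gas2l3 at 7.80 (5.54 to 5.82). In the p27K-negative library of tumour 0, 13 of the 250 genes stood apart: Nusap1 at 63.4 (83.0 to 86.5), Chaf1a at 72.6 (84.4 to 86.2), Ctsa at 78.0 (93.6 to 96.4), Tgfbr2 at 316 (187 to 204) and Tnc at 29.4 (0.352 to 5.26). There were also H2-K1 at 1012 (1314 to 1360.0), Ifngr1 at 31.7 (25.2 to 25.8), Tmsb4x at 156 (4.63 to 12.8), Gadd45g at 68.8 (29.0 to 34.7) and Dio2 at 22.1 (1.58 to 3.68). There were also Calhm2 at 21.7 (18.5 to 18.9), Fam111a at 44.1 (15.5 to 19.0) and Vcam1 at 143 (198 to 203). In the p27K-negative library of tumour 1 it was E2f1 at 46.2 (52.6 to 53.4). In the p27K-negative library of tumour 2, 4 of the 250 genes stood apart: Rrm1 at 282 (289 to 290.1), Mt1 at 480.1 (372 to 382), Cxcl10 at 32.3 (12.9 to 14.2) and Nr2f1 at 70.7 (107 to 114). In the p27K-negative library of tumour 4, 2 of the 250 genes stood apart: Gas2l3 at 47.0 (40.9 to 41.6) and Gdf15 at 44.0 (52.1 to 53.5).

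For 49 of the 250 genes the gate difference in EMT6 differed from the mean of 4T07 and D2A1, against 551 of all 13559 tested genes (4.06%). The test was the contrast in the joint edgeR fit with Benjamini-Hochberg adjustment. Of the 250 genes, 12 were named for their place in this same contrast, so the 49 are no independent count. The difference of log2 changes, EMT6 minus the others, stands in brackets. It was above 0 for Gas2l3 (0.90), Ccne1 (0.99), Cks2 (0.86), Cenpe (0.82), Bub1b (0.82), Aldoc (1.07) and Ctsa (0.48). The same holds for Col1a1 (1.00), Col1a2 (2.82), Col3a1 (1.89), Col12a1 (1.62), Col5a2 (2.13), Thbs2 (1.22) and Krt8 (1.18). The same holds for Ptgs2 (1.29), Egr1 (0.50), Gtse1 (1.76), Krt19 (2.31), Egfr (2.01), Hspa1a (0.93) and Fzd7 (0.40). Fitted differences that rest on few counts in another line were those of Vegfc (4.82), Adamts2 (4.91), Zfp618 (4.52), Kng2 (4.32), Calhm2 (3.98), Flrt2 (3.50) and Papss2 (3.36). It was below 0 for Cdkn1a (-0.47), Ndrg1 (-0.59), Bnip3 (-0.92), Slc2a1 (-0.77), Ldha (-0.42), Eno2 (-0.52) and Odc1 (-0.66). The same holds for Tgfbr3 (-1.26), P4ha1 (-0.53), P4ha2 (-0.62), Ogn (-1.65), Tnc (-1.89), Fbln1 (-1.39) and Mmp2 (-1.01). The same holds for Hmox1 (-1.02), Gclm (-0.72), Ifit2 (-0.77), Fam111a (-2.42), Gpm6b (-1.32) and Vcam1 (-0.67). Smoc1 (-3.36) had no count in the p27K-negative libraries of D2A1. Line and sequencing run cannot be told apart in these values.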

How the results depend on the processing

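With the replicate block removed, 2008 genes rose and 2463 fell, 4466 of them among the 6567 called with pairing, and 54 of the 250 genes followed lost their call; 151 genes differed between lines, and 6 of the 12 named line differences (Kng2, Fam111a, Tnc, Fbln1, Gpm6b and Ogn) lost their call. The other settings moved neither count of the gate difference by over 1.5 times: 2632 to 3337 genes rose and 2777 to 3532 fell under RLE scaling, total count scaling, DESeq2, no filter and the stricter filter. Leaving out each tumour in turn gave 2436 to 3442 genes that rose, 2648 to 3542 that fell, 885 to 2346 called between tumours and 246 to 410 called between lines, the lowest each time without tumour 2. Leaving out each tumour moved Postn between -0.86 and 0.82, adjusted p = 0.0283, the latter without tumour 0, against -0.22 ± 0.58 with all 4 tumours, and the cause was not tested. Of the other genes followed, 13 gained and 2 lost a call without tumour 0, and 11 lost it without each of tumours 1, 2 and 4; these are named beside their values. The DESeq2 alternative called 3 of the genes no more, Zeb1 (0.30, adjusted p = 0.0832), Ciita (-0.64, adjusted p = 0.112) and Cxcl9 (-1.13, adjusted p = 0.0804). RLE scaling lost Met (-0.21, adjusted p = 0.0528) and total count scaling Vegfc (1.72, adjusted p = 0.0509). RLE scaling gained 1 call and total count scaling 2. With no filter 7 of the genes followed gained and 1 lost a call, and with the filter of 5 CPM 4 gained and 2 lost it. The genes changed by the filters are not named here. Under total count scaling the medians of the 33 lists each moved by less than 1 SD of the 4 tumours' own medians, and leaving out a tumour moved 3 to 5 of them further.

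In simulations of 4 pairs, with far fewer changed genes than were called in the data, changes of 1.5-fold were found in 70.0% of cases. A gene not called may still differ. Genes of a few CPM rest on few counts, and the shallowest D2A1 library held 1335433 counts, which limits the line contrast.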

Other observations

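The genes that set tumour 0 apart were mostly not members of the lists, and were chosen after their values were seen. In its p27K-high library Notum, an enzyme that inactivates WNT ligands, was at 143 CPM, against at most 27.4 CPM in the other 7 libraries. Padi4, which converts arginine to citrulline in histones, was at 119 CPM against at most 15.8. Col6a3, of collagen VI, was at 73.0 CPM against at most 8.89, Serpine2, a protease inhibitor, at 66.4 against 5.26, and the coagulation factor F5 at 46.4 against 3.74. Ace, the angiotensin-converting enzyme, was at 38.8 CPM against 5.61, and Esm1, a proteoglycan known from endothelium, at 22.8 against 1.47. In both gates of tumour 0 the transcription factor Etv1 was at 45.8 CPM or more, against at most 3.45 CPM elsewhere, and the leptin receptor gene Lepr at 43.6 CPM or more, against 9.13. The fibroblast marker Pi16 was among these genes, at 26.0 CPM in the p27K-high library against at most 1.52. What sets this tumour apart was not tested.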
